A study of Rana omeimontis with 12 samples.

Results

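The liver response of Omei wood frog (Rana omeimontis) tadpoles to 3,5,3'-triiodothyronine (T3), the active thyroid hormone, was examined across the whole annotated liver transcriptome. Tadpoles at Gosner stages 30 to 31 were kept for 3 days with 10 nM T3 or with its vehicle, dimethyl sulfoxide (DMSO). Spirulina powder was offered to both groups. The authors reported lower food intake and body weight with T3, so effects of the hormone and of feeding cannot be told apart here. Poly-A RNA from liver was sequenced as 3 libraries with vehicle (control, labelled pro-metamorphic) and 3 with T3 (labelled metamorphic). These are 6 of the 12 libraries of a series that also covers the tail. Below, a liver with a number stands for 1 liver library. The sources used here do not say whether a library held 1 or several tadpoles, or whether libraries with the same number came from the same animals, so p-values measure the spread between these libraries. Transcript levels were FPKM (fragments per kilobase of transcript, scaled to the mapped fragments of a library) of unigenes, the transcript clusters of a de novo assembly, which are named after the closest protein in the NR database, often of another species. Of 56172 unigenes, 18923 were kept, those that reached 1 FPKM in 3 or more of the 6 liver libraries. Another 31462 were above 0 in at least 1 liver but did not meet this limit, and 5787 were listed at 0 in every liver. Of the unigenes kept, 12695 had an informative description, and these fell into 10059 distinct descriptions, of which the most highly expressed unigene is described below.

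During metamorphosis the tadpole liver turns from an organ of an aquatic, ammonia-excreting herbivore into that of a terrestrial frog. Thyroid hormone enters hepatocytes through membrane transporters and binds nuclear receptors that switch target genes from repression to activation. In other frogs the liver then raises albumin and the urea cycle, while the blood changes from larval to adult haemoglobin.

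The summed FPKM of the 6 livers lay between 956551 and 1029985, and steps between low values put their depth at 1.00 to 1.26 times that of control liver 1. At least 1 FPKM was reached by 19454 to 19886 unigenes in control livers and by 17764 to 17996 in T3 livers. The 10 most abundant unigenes held 14.4 to 15.6% of the summed FPKM in control livers and 19.3 to 22.1% in T3 livers. Profiles correlated at 0.934 to 0.955 between control livers, at 0.904 to 0.936 between T3 livers and at 0.815 to 0.882 across the treatments (Pearson's r of log2(FPKM + 1) across unigenes, which are not independent replicates). Hepatocyte markers were high in every library, with 4.09 to 5.82% of the summed FPKM in controls and 8.54 to 11.8% with T3 (exact permutation test, two-sided, p = 0.10). Of the 15 members tested, albumin and carbamoyl-phosphate synthase were called higher with T3, and apolipoprotein A-I and transthyretin lower. The share by itself therefore does not measure hepatocyte content. Exocrine pancreas markers, however, held 8.16% and 10.1% in control livers 1 and 2 against 0.041% in control liver 3, and 0.638%, 0.0242% and 0.0453% in T3 livers 1 to 3. Calls or list medians were therefore also taken, group by group, with control livers 1 and 2 left out. This leaves 1 control liver against 3 T3 livers, so calls can be lost because the group is smaller. Where only a list median is given for this comparison, it does not show that the calls of the list held. The mean share of exocrine pancreas markers was 6.11% in controls and 0.236% with T3 (exact permutation test, two-sided, p = 0.30), and with 3 against 3 libraries this test cannot go below 0.10.

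After T3, 725 unigenes rose and 1640 fell at an adjusted p under 0.05, 12.5% of those tested (limma on log2(FPKM + 1), Benjamini-Hochberg adjustment). By direction this is 3.83% higher and 8.67% lower. The control and T3 livers did not overlap in 36.8% of the unigenes tested. Of the 10059 descriptions, 426 rose and 969 fell (4.24% and 9.63%, in all 13.9%). The excess of falls depended on the scale. The median log2 fold change of all unigenes was −0.26 in the deposited FPKM and −0.03 after median-ratio scaling, where 969 unigenes rose and 714 fell (8.89%), and quantile normalization gave 922 and 754. Over descriptions 9.95% were called after median-ratio scaling. Changes are given below on the deposited scale, and a named transcript whose call median-ratio scaling ended is marked. For lists, the counts after median-ratio scaling are given where they changed the balance of rises and falls. Counts of called list members are set beside the 13.9% called over all descriptions, which does not allow for level. The called share of unigenes climbed with abundance, to 37.3% at 100 to 1000 FPKM and 46.8% at 1000 FPKM or more. A list of abundant transcripts can therefore exceed 13.9% without differing from other unigenes of its level. Fold changes on log2(FPKM + 1) understate the change of transcripts near or below 1 FPKM.

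Among the calls, large changes were more often rises. At least 1 on the log2 scale was reached by 650 rises and 1248 falls, but 97 rises and 52 falls reached 3, and 23 rises and 9 falls reached 5. These counts leave out deep falls that were not called, among them pancreatic amylase (−7.01) and lysozyme C-2 (−6.93). The share of unigenes called climbed with abundance, from 6.29% below 3 FPKM to 46.8% at 1000 FPKM or more, while the median standard error of the log2 fold change dropped from 0.30 to 0.17. Proteins of mobile elements gave 21 rises and 51 falls among 1202 unigenes, or 5.99% (27 and 28 after median-ratio scaling). The 632 tested unigenes with no NR match were called in 11.7% of cases.

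**Figure D1:**
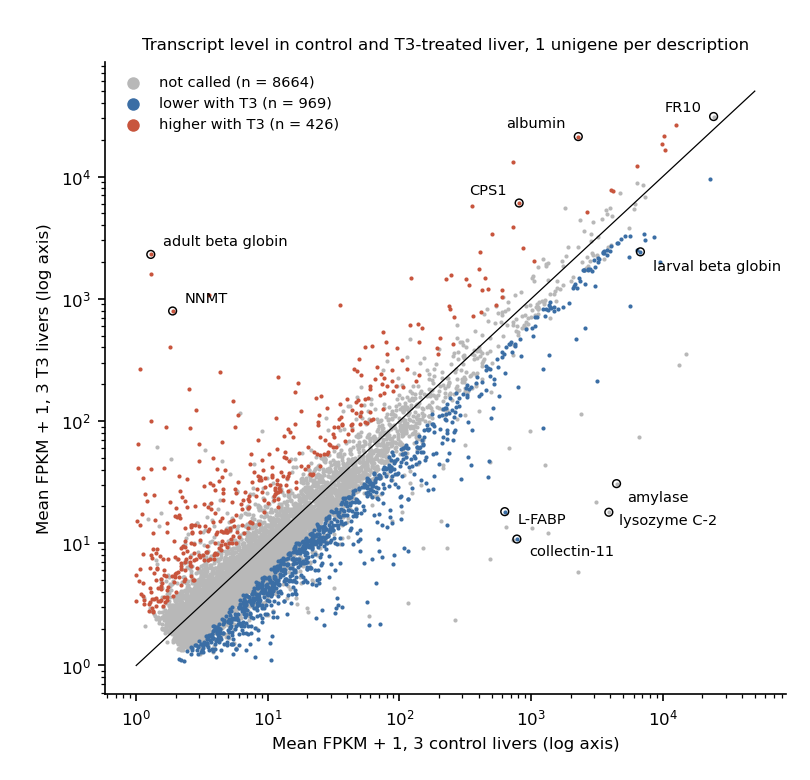
Mean FPKM + 1 of the 3 control livers (x axis, log) against that of the 3 T3 livers (y axis, log), with a dot for each of 10059 descriptions and the line of equality. The 426 called rises (red) reach far from the line at low control levels (adult beta globin, NNMT), the 969 called falls (blue) lie below it, and amylase and lysozyme C-2 stand far below the line without being called (grey).

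Of 14 members of the thyroid hormone axis 4 rose and 2 fell, 42.9% against 13.9% of all descriptions. The list median was −0.17 (0.06 after median-ratio scaling). Krüppel-like factor 9, a transcription factor that receptors induce within hours, stood at 0.99, 2.25 and 0.80 FPKM in control livers 1 to 3 and at 15.1, 32.0 and 15.9 in T3 livers 1 to 3. It rose by 3.20 ± 0.36 (log2, SE; adjusted p = 0.0025). The thyroid hormone-induced bZIP protein went from 0.06, 0.10 and 0.14 FPKM to 16.9, 24.9 and 7.08, a rise of 3.82 ± 0.41 (adjusted p = 0.0023). Thyroid hormone receptor beta was listed at 0 in all 3 control livers and at 6.39, 3.84 and 3.15 FPKM with T3 (adjusted p = 0.0026), so no fold is given. Nuclear receptor corepressor 2, which silences targets of the unliganded receptor, rose by 1.01 ± 0.23 (adjusted p = 0.030). Type III iodothyronine deiodinase, the enzyme that inactivates T3, fell instead, from 24.9, 30.1 and 15.8 FPKM to 5.02, 5.30 and 0.97 (log2 fold change −2.50 ± 0.48, adjusted p = 0.019). The carrier transthyretin fell by 2.05 ± 0.37 (adjusted p = 0.016). The T3 transporters monocarboxylate transporter 8 (0.71 ± 0.29, adjusted p = 0.14) and 10 (−0.37 ± 0.24, adjusted p = 0.34) did not pass the test, and the second lay at −0.08 after median-ratio scaling. Without control livers 1 and 2 the list median was −0.10.

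Haemoglobin chains, which carry oxygen in red blood cells, gave the 2 largest rises and the fifth largest among described transcripts. Adult beta globin was at 0, 0.30 and 0.57 FPKM in control livers 1 to 3 and at 2745, 1353 and 2819 in T3 livers 1 to 3. Its log2 fold change of 10.75 ± 0.33 (adjusted p = 1.8e-05) moved it from position 18829 to position 76 among the tested unigenes ordered by mean FPKM. Haemoglobin subunit alpha-C went from 0.21, 0.32 and 0.34 FPKM to 2097, 769 and 1909 (10.14 ± 0.37, adjusted p = 3e-05), and alpha-B from 0.20, 0 and 0 to 313, 182 and 306 (7.94 ± 0.26, adjusted p = 2.2e-05). No control liver came near any T3 liver in these 3 chains, and T3 liver 2 was the lowest T3 library for each. Larval chains went the other way but much less. Larval beta globin stood at 4354, 5670 and 10263 FPKM in controls and at 2784, 1943 and 2536 with T3 (−1.40 ± 0.31, adjusted p = 0.030), and haemoglobin subunit alpha-3 fell by 1.30 ± 0.30 (adjusted p = 0.033). Control liver 3 was the highest library for each. Both falls stayed called in only 1 of the 6 omissions of a single library and were lost after median-ratio scaling (adjusted p = 0.071 and 0.094). A less abundant chain, haemoglobin alpha 2, dropped from 21, 44.9 and 28.2 FPKM to 1.16, 1.89 and 1.99 (−3.54 ± 0.31, adjusted p = 0.00096). With T3 the larval and adult beta globins were of similar level, the larval higher in T3 livers 1 and 2 and the adult in T3 liver 3. Erythroid markers as a whole held 0.540, 0.560 and 1.12% of the summed FPKM in controls and 0.639, 0.393 and 0.469% with T3 (exact permutation test, two-sided, p = 0.40). In bulk tissue such as this, fewer cells of a type and less RNA per cell cannot be told apart.

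Between and behind the globins stood enzymes of detoxification and conjugation with little transcript in control livers. Nicotinamide N-methyltransferase (NNMT), which methylates nicotinamide, rose from 0.55, 0.39 and 1.73 FPKM to 309, 599.7 and 1473 (8.49 ± 0.55, adjusted p = 0.00033). The T3 livers differed several-fold among themselves, with T3 liver 3 the highest, but none overlapped the controls. Among the largest rises were also 2 carboxylesterase-type enzymes, which cleave ester bonds of lipids and xenobiotics: a medium-chain fatty acyl-CoA hydrolase precursor went from 2.87, 1.41 and 3.44 FPKM to 998, 723 and 1476 (8.21 ± 0.33, adjusted p = 4.1e-05), and carboxylesterase 3 from 1.12, 0.49 and 0.80 to 340.3, 392 and 468 (7.80 ± 0.22, adjusted p = 1.8e-05). Cytosolic sulfotransferases, which attach sulfate to phenols, steroids and drugs, also rose. SULT1C4 stood at 0.33, 0.29 and 0.27 FPKM in controls and at 74.3, 115 and 106 with T3 (6.24 ± 0.23, adjusted p = 3e-05). SULT1C3 rose by 6.2 ± 0.28 (adjusted p = 6.6e-05) and an amine sulfotransferase by 5.19 ± 0.39 (adjusted p = 0.00066). SULT2B1, which prefers cholesterol and related sterols, fell from 61.7, 119 and 86.9 FPKM to 5.67, 9.87 and 5.71 (−3.47 ± 0.31, adjusted p = 0.0010). Among 23 conjugating transferases 5 rose and 1 fell, 26.1% against 13.9% of all descriptions. The median was −0.48 over the list, so most members lay below 0. The wording of this list was widened after the values had been seen. NAD(P)H quinone dehydrogenase 1, which reduces quinones, rose from 0, 0.60 and 0.26 FPKM to 36.7, 31.6 and 50.6 (4.98 ± 0.28, adjusted p = 0.00016). Methionine sulfoxide reductase A, which repairs oxidised methionine, rose by 4.97 ± 0.72 (adjusted p = 0.0074) with a wide spread among T3 livers (96.0, 26.1 and 244 FPKM), and its call was lost without control livers 1 and 2 (adjusted p = 0.16).

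**Figure D2:**
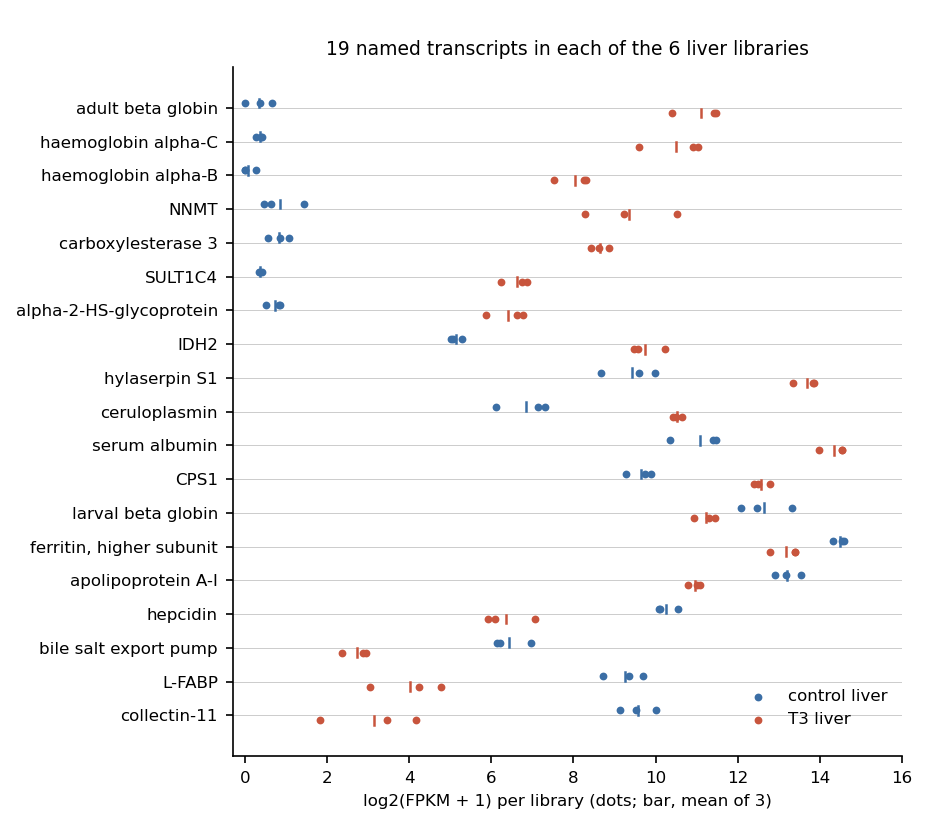
Level of 19 named transcripts in each liver library as log2(FPKM + 1), with a dot for each of the 3 control (blue) and 3 T3 (red) livers and a bar at each mean. The groups do not overlap for any of the 19, which were picked with results known, against 42.5% of all descriptions without overlap. Adult beta globin spans 0 to 0.57 FPKM in controls and 1353 to 2819 with T3.

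Cytochrome P450 enzymes, the oxidases of steroids, fatty acids and foreign compounds, were rearranged: 9 of 43 rose and 9 fell, 41.9% called against 13.9% of all descriptions, around a median of −0.10 (0.16 after median-ratio scaling). CYP2A6 went from 1.42, 1.58 and 1.68 FPKM to 76.8, 71.3 and 113 (5.07 ± 0.23, adjusted p = 7.1e-05). CYP2W1 rose by 4.46 ± 0.80 (adjusted p = 0.016), although control livers ranged from 0.35 to 9.75 FPKM. CYP3A29 rose by 2.17 ± 0.28 (adjusted p = 0.0045) and reached 845, 465 and 565 FPKM, while a CYP4B1, an enzyme of the fatty acid-oxidising family, fell from 20.5, 24.3 and 32.9 FPKM to 0.27, 1.59 and 1.57 (−3.70 ± 0.34, adjusted p = 0.0012). The description CYP2K1-like was carried by 19 unigenes, so reads may be split among close copies. Its most abundant unigene rose by 1.31 ± 0.24 (adjusted p = 0.017), and of the 19, 7 were called higher and 1 lower. The descriptions CYP2B6 and CYP2C18 also held unigenes called in both directions. CYP7B1, an oxysterol hydroxylase, showed the deepest fall of the family, from 34.0, 81.6 and 58.8 FPKM to 0.63, 1.11 and 1.66 (−4.74 ± 0.35, adjusted p = 0.00065). In the family 3 rose and 2 fell without control livers 1 and 2.

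Secreted plasma proteins moved in both directions, with 5 of 18 carriers up and 6 down (5 and 2 after median-ratio scaling). This was 61.1% called against 13.9% of all descriptions. Their summed share grew from 3.29 to 4.22% of the FPKM in controls to 8.49 to 11% with T3. Serum albumin, the main osmotic protein and carrier of blood, was at 2845, 1301 and 2697 FPKM in controls and at 23906, 16077 and 23711 with T3. This was a 9.31-fold higher mean (3.28 ± 0.32, adjusted p = 0.0015) and brought albumin from position 108 to position 4. The copper carrier and ferroxidase ceruloplasmin rose from 157, 68.7 and 139.8 FPKM to 1603, 1454 and 1380 (3.67 ± 0.31, adjusted p = 0.00085). Alpha-2-HS-glycoprotein (fetuin-A), an inhibitor of mineral deposition, emerged from 0.79, 0.82 and 0.43 FPKM to 57.4, 97.5 and 108 (5.68 ± 0.28, adjusted p = 0.00010). Plasma retinol-binding protein, already the ninth most abundant transcript, rose by 0.89 ± 0.16 (adjusted p = 0.016). In contrast, apolipoprotein A-I, the core of high-density lipoprotein, fell from 9207, 7632 and 11943 FPKM to 2047, 1771 and 2175 (−2.24 ± 0.19, adjusted p = 0.00091). It moved from position 10 to position 99. This was the most abundant of 4 unigenes with that description, of which 1 was called higher and 1 lower. Apolipoprotein A-I was counted in a separate list. The lowest log2 fold change among the 18 carriers was −3.88, the value of the hormone hepcidin. Without control livers 1 and 2 the median of the carriers was −0.11, against 0.08 with all livers.

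Serpins, the plasma inhibitors of serine proteases, were among the most abundant transcripts to rise. Of the 23 protease inhibitors in their list 26.1% were called, against 13.9% of all descriptions. Hylaserpin S1, a frog serpin, went from 772, 1007 and 406 FPKM to 14516, 14742 and 10478, an 18.2-fold higher mean (4.26 ± 0.33, adjusted p = 0.00068) that took it from position 246 to position 10. Alpha-1-antiproteinase, from the same assembly cluster, rose from 335, 500.3 and 237 FPKM to 6311, 5941 and 4957 (4.06 ± 0.27, adjusted p = 0.00039). A further unigene of that cluster, alpha-1-antitrypsin, fell from 20.2, 32.1 and 21.4 FPKM to 1.26, 3.99 and 0.31 (−3.35 ± 0.47, adjusted p = 0.0066). Near-identical copies within such a cluster can share reads, so the split between its unigenes is uncertain. Of 93 clusters with at least 2 called unigenes, 13 held calls in both directions. Angiotensinogen, the serpin that is cleaved to angiotensin, rose 2.70 ± 0.15 to between 1395 and 1550 FPKM (adjusted p = 0.00016). In all 4 of 23 protease inhibitors rose and 2 fell, with 3 and 0 when control livers 1 and 2 were left out.

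Coagulation factors and most complement components are made mainly by the liver. Among 31 coagulation and fibrinolysis members, 7 rose and 1 fell, 25.8% against 13.9% of all descriptions, around a median of 0.41. Coagulation factor V, the cofactor of thrombin formation, rose from 47, 46.5 and 39.9 FPKM to 259.6, 199 and 333 (2.52 ± 0.22, adjusted p = 0.0010). Protein C, which inactivates that factor, rose by 2.33 ± 0.20 (adjusted p = 0.00085). Factor XII, of the contact pathway, fell by 1.21 ± 0.25 (adjusted p = 0.023; 0.069 after median-ratio scaling). The abundant fibrinogen beta chain lay at 5196 to 8151 FPKM in controls and 7262 to 11080 with T3 and did not pass the test (adjusted p = 0.20). Of 29 complement components none rose and 5 fell, 17.2% against 13.9% of all descriptions, with a median of −0.63, but after median-ratio scaling 3 rose and 2 fell. The difference between these lists was not tested. C1q subunit A, the recognition part of the classical pathway, fell by 2.20 ± 0.37 (adjusted p = 0.013), whereas the most abundant C3 unigene stayed within the control range with 6724, 7327 and 6245 FPKM (−0.09 ± 0.17, adjusted p = 0.76; 0.23 after median-ratio scaling). Without control livers 1 and 2 the medians were 0.46 for coagulation and −0.75 for complement.

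Soluble lectins, which bind sugars on microbes, were called in 35% of 20 members, against 13.9% of all descriptions. They included the deepest fall among described transcripts that stayed called in every single-library omission. Collectin-11 stood at 735, 563 and 1037 FPKM in controls and at 10, 16.9 and 2.56 with T3 (−6.41 ± 0.56, adjusted p = 0.00091), a 79.2-fold lower mean. Galectin 4 fell from 318, 335 and 398 FPKM to 27.8, 46.4 and 53.8 (−3.05 ± 0.26, adjusted p = 0.00091). A highly expressed surfactant protein D-like lectin fell by 0.80 ± 0.16 (adjusted p = 0.020) and was not called after median-ratio scaling (adjusted p = 0.10). Over the list, 2 of 20 rose and 5 fell (3 and 2 after median-ratio scaling), and without control livers 1 and 2 the fall of collectin-11 was the call that remained.

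Of 31 members for haem and iron storage none rose and 7 fell, 22.6% against 13.9% of all descriptions. After median-ratio scaling 4 of the falls, all ferritins, were called. Ferritin higher subunit, of the shell that stores iron, was the second most abundant transcript in control livers, with 23937, 20543 and 24500 FPKM. With T3 it stood at 10673, 7007 and 10733 FPKM (−1.30 ± 0.19, adjusted p = 0.0081) in position 12. A frog M-ferritin chain fell from 8389, 8247 and 9006 FPKM to 4009, 2264 and 3354 (−1.45 ± 0.21, adjusted p = 0.0079). Hepcidin, the liver hormone that blocks cellular iron export, fell more steeply, from 1084, 1496 and 1093 FPKM to 67.1, 134 and 59.5 (−3.88 ± 0.32, adjusted p = 0.00079). Of the 7 falls 6 were ferritins and 1 protoporphyrinogen oxidase, an enzyme of haem synthesis. The list's share of summed FPKM was 4.08 to 4.90% in controls and 1.54 to 2.14% with T3, without overlap. Shares of many other lists did not overlap either. No ferritin call held without control livers 1 and 2 (adjusted p = 0.15 for the higher subunit), while hepcidin stayed called (adjusted p = 0.047).

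The urea cycle, which turns ammonia into urea for excretion on land, had the highest median of the 54 lists, 1.74. Of its 13 members 7 rose and none fell, 53.8% against 13.9% of all descriptions, and every member had a positive log2 fold change. Carbamoyl-phosphate synthase, the mitochondrial entry enzyme, went from 617, 953 and 859.7 FPKM to 5723, 5424 and 7076, a 7.50-fold higher mean (2.92 ± 0.20, adjusted p = 0.00048). N-acetylglutamate synthase, which makes its obligate activator, rose from 6.62, 10.8 and 14.2 FPKM to 82.0, 81.2 and 152 (3.20 ± 0.35, adjusted p = 0.0023). Arginase, which releases urea, rose by 2.19 ± 0.35 (adjusted p = 0.011). The 2 middle steps moved less. Argininosuccinate synthase stood at 1526, 2415 and 3135 FPKM in controls and 3780, 4086 and 5330 with T3 (0.94 ± 0.27, adjusted p = 0.062; 0.038 after median-ratio scaling), and argininosuccinate lyase overlapped between the groups (0.36 ± 0.21, adjusted p = 0.29). Without control livers 1 and 2, 2 of the 7 stayed called.

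Amino acid breakdown moved in both directions, with 4 of 52 members up and 6 down around a median of 0.02, 19.2% called against 13.9% of all descriptions. After median-ratio scaling 6 rose and 2 fell, with a median of 0.32. Cysteine dioxygenase, the first step of taurine synthesis, rose from 42.0, 50.4 and 52.4 FPKM to 324, 302 and 335 (2.71 ± 0.17, adjusted p = 0.00031). The decarboxylating glycine dehydrogenase, which cleaves glycine in mitochondria, rose by 2.25 ± 0.30 (adjusted p = 0.0052). Both enzymes of creatine synthesis fell. Glycine amidinotransferase, the first, went from 62.7, 61.0 and 86.1 FPKM to 0.26, 0.18 and 3.13 (−5.26 ± 0.48, adjusted p = 0.0011), and guanidinoacetate N-methyltransferase, the second, fell by 2.25 ± 0.29 (adjusted p = 0.0046). Of 15 aminotransferases 2 rose and 2 fell (2 and 1 after median-ratio scaling), 26.7% against 13.9% of all descriptions. Aspartate aminotransferase 1 rose by 2.00 ± 0.22 (adjusted p = 0.0023) and alanine aminotransferase 2 by 1.23 ± 0.25 (adjusted p = 0.022). Cytosolic branched-chain aminotransferase fell by 2.66 ± 0.39 (adjusted p = 0.0079). Methylenetetrahydrofolate dehydrogenase 2, which passes carbon units from folate in mitochondria, fell from 191, 262 and 228 FPKM to 15.4, 10.7 and 13.5 (−4.01 ± 0.21, adjusted p = 0.00014). Among the 52 members, 1 rise and 1 fall held without control livers 1 and 2.

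Of 18 glycolytic members none rose and 5 fell, 27.8% against 13.9% of all descriptions. The median was −0.58 (−0.39 with 2 falls after median-ratio scaling). Glyceraldehyde-3-phosphate dehydrogenase, often used as a reference gene, stood at 2303, 2795 and 2632 FPKM in controls and at 576, 575 and 573 with T3 (−2.16 ± 0.14, adjusted p = 0.00039). Aldolase B fell by 1.09 ± 0.14 (adjusted p = 0.0043). Of 11 gluconeogenic members 45.5% were called, against 13.9% of all descriptions. The 4 rises were all descriptions of phosphoenolpyruvate carboxykinase, which commits oxaloacetate to glucose, and pyruvate carboxylase fell. Of these 4 unigenes 2 came from 1 assembly cluster. The most abundant cytosolic carboxykinase went from 346, 368 and 510.1 FPKM to 3142, 2694 and 1460 (2.52 ± 0.31, adjusted p = 0.0035), and the mitochondrial form rose by 1.93 ± 0.26 (adjusted p = 0.0055). Liver glycogen phosphorylase, which frees glucose from glycogen, rose by 1.43 ± 0.17 (adjusted p = 0.0030), and phosphoglucomutase 1 fell by 1.23 ± 0.20 (adjusted p = 0.011). UDP-glucose 6-dehydrogenase, which supplies glucuronate for conjugation and matrix sugars, rose from 12.7, 10.5 and 9.55 FPKM to 329, 183 and 169.8 (4.2 ± 0.28, adjusted p = 0.00040). The calls of this enzyme and of glyceraldehyde-3-phosphate dehydrogenase held without control livers 1 and 2 (adjusted p = 0.025 and 0.038), and those of the carboxykinases did not.

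In mitochondria, transcripts of the organelle's own genome rose while those of nuclear genes for the same complexes did not pass the test. Cytochrome c oxidase subunit I, the core of complex IV, stood at 10230, 10758 and 9657 FPKM in controls and at 18269, 25529 and 20055 with T3 (1.05 ± 0.16, adjusted p = 0.0082). Of 11 mitochondrially encoded members 6 rose and none fell, with a median of 0.66. This was 54.5% called, against 13.9% of all descriptions and 46.8% of unigenes at 1000 FPKM or more. The list's share of summed FPKM went from 5.58 to 5.86% in controls to 9.03 to 12.8% with T3 (exact permutation test, two-sided, p = 0.10). Of 41 nuclear-encoded members none was called, with a median of 0.01 and a range from −0.51 to 0.64; after median-ratio scaling 6 of them rose. The difference between these lists was not tested. Without control livers 1 and 2 the medians were 0.71 for the mitochondrially encoded list and −0.09 for the nuclear-encoded list. In the tricarboxylic acid cycle 4 of 16 members rose and 1 fell, 31.25% against 13.9% of all descriptions. NADP-dependent isocitrate dehydrogenase 2 stood out, from 38.2, 32.8 and 31.6 FPKM to 1189, 759 and 708 (4.62 ± 0.23, adjusted p = 0.00010), a 25.9-fold higher mean, and stayed called without those livers (adjusted p = 0.013).

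**Figure D3:**
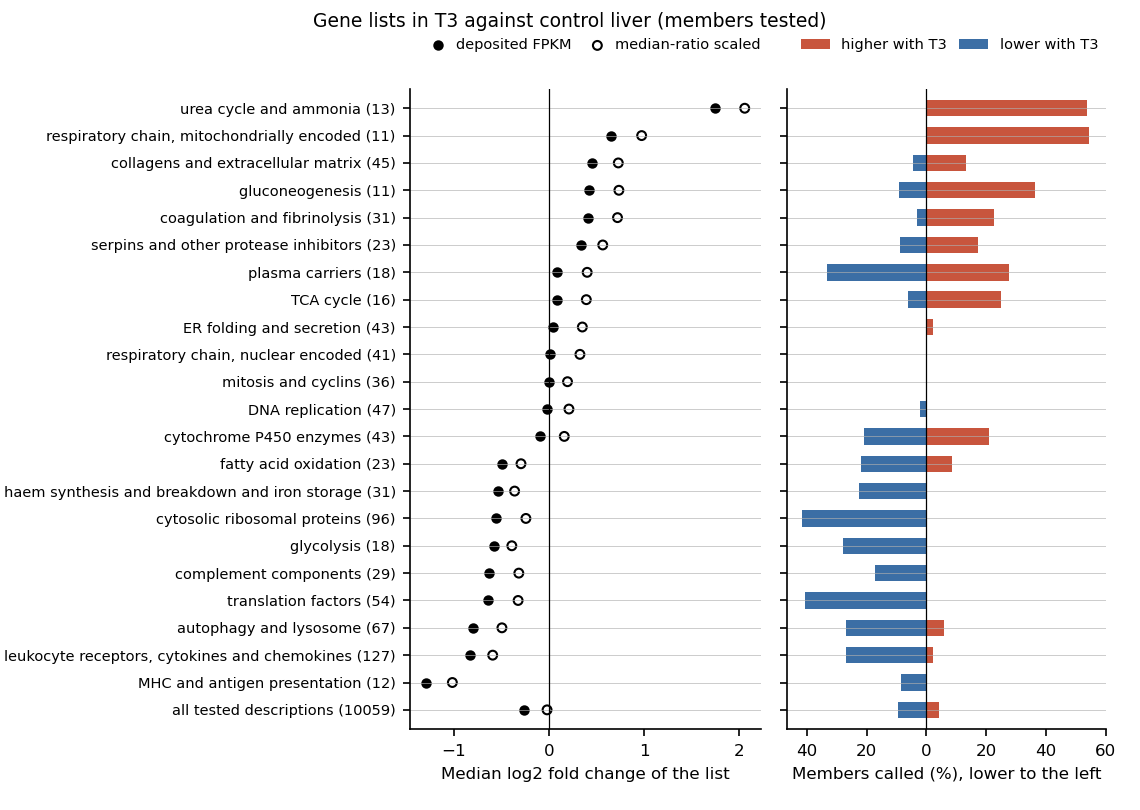
Left, median log2 fold change of 22 gene lists and of all 10059 descriptions in deposited FPKM (filled) and after median-ratio scaling (open); right, percent of members called higher (red) or lower (blue) with T3 in deposited FPKM, with member numbers in parentheses. Urea cycle and mitochondrially encoded members have the highest medians and only called rises, and ribosomal proteins and translation factors only called falls.

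Of 23 members of fatty acid oxidation 2 rose and 5 fell (3 and 2 after median-ratio scaling), and of 13 for bile acids none rose and 3 fell (1 and 2). In deposited FPKM 30.4% and 23.1% were called, against 13.9% of all descriptions. Liver fatty acid-binding protein, which carries fatty acids through the cytosol, dropped from 417, 822 and 649.8 FPKM to 7.23, 26.3 and 17.9, a 36.7-fold lower mean (−5.23 ± 0.45, adjusted p = 0.00091). The bile salt export pump, which moves bile salts into the canaliculus, fell from 73.2, 123 and 69.7 FPKM to 4.12, 6.40 and 6.77 (−3.70 ± 0.29, adjusted p = 0.00074). The groups were far apart in both transcripts. Retinol dehydrogenase 7 fell by 4.02 ± 0.31 (adjusted p = 0.00068), and 11-beta hydroxysteroid dehydrogenase 1, which regenerates active glucocorticoid, by 4.04 ± 0.56 (adjusted p = 0.0062). The list of 44 alcohol, aldehyde and steroid dehydrogenases gave 5 rises and 5 falls (7 and 3 after median-ratio scaling), 22.7% called against 13.9% of all descriptions. Its largest rise was that of class I alcohol dehydrogenase alpha, 4.58 ± 0.49 (adjusted p = 0.0023). The receptor PPAR alpha, a regulator of fatty acid oxidation, fell by 0.97 ± 0.24 (adjusted p = 0.042; 0.11 after median-ratio scaling). Without control livers 1 and 2 no member of fatty acid oxidation was called, nor were the steroid dehydrogenase (adjusted p = 0.15) and PPAR alpha (0.33), while 2 bile acid falls held.

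Among transporters, efflux pumps of the ABC family rose in 6 of 29 cases and fell in 1, 24.1% against 13.9% of all descriptions. ABCB5 went from 0.24, 0.95 and 0.72 FPKM to 24.6, 52.6 and 43.8 (4.62 ± 0.33, adjusted p = 0.00056). A neighbouring unigene named multidrug resistance protein 1-like, an exporter of hydrophobic compounds, went from 0.30, 0.58 and 0.23 FPKM to 14.7, 26.4 and 29.8 (4.12 ± 0.30, adjusted p = 0.00064). Aquaporin 8, a water channel, fell from 34.0, 53.5 and 19.7 FPKM to 1.16, 2.71 and 2.18 (−3.53 ± 0.39, adjusted p = 0.0023), and the transport ATPase 13A4 by 3.72 ± 0.24 (adjusted p = 0.00033). Among 13 aquaporins and ion pumps 2 rose and 2 fell (3 and 1 after median-ratio scaling), 30.8% against 13.9% of all descriptions. Without control livers 1 and 2, 3 ABC rises held and the fall of aquaporin 8 did not (adjusted p = 0.081). Of 113 other solute carriers 9 rose and 12 fell, 18.6% against 13.9% of all descriptions, but 11 rose and 4 fell after median-ratio scaling, and none was called without those livers.

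Transcripts of the translation machinery were lower on the deposited scale. Of 96 cytosolic ribosomal proteins none rose and 40 fell, 93 of the 96 had a negative fold change, and the median was −0.56. These are abundant transcripts, and their called share was 41.7%. Of all unigenes, 37.3% were called at 100 to 1000 FPKM and 46.8% at 1000 FPKM or more. After median-ratio scaling the median was −0.24 and none was called in either direction. For example, ribosomal protein S9 stood at 1545, 1772 and 1938 FPKM in controls and 859.6, 997 and 717 with T3 (−1.04 ± 0.18, adjusted p = 0.014; 0.086 after median-ratio scaling). The share of summed FPKM fell from 13.8 to 15.5% in controls to 8.83 to 10.7% with T3 (exact permutation test, two-sided, p = 0.10). Translation factors kept more of their falls, with 22 of 54 called lower in deposited FPKM and 8 lower and 1 higher after median-ratio scaling. Their called share in deposited FPKM was 40.7%, against 13.9% of all descriptions. Initiation factor 4B fell by 1.53 ± 0.17 (adjusted p = 0.0025), and initiation factor 3 subunit A by 1.65 ± 0.19 (adjusted p = 0.0025). Without control livers 1 and 2 the medians were −0.59 for ribosomal proteins and −0.67 for translation factors, against −0.56 and −0.64 with all livers.

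**Figure D4:**
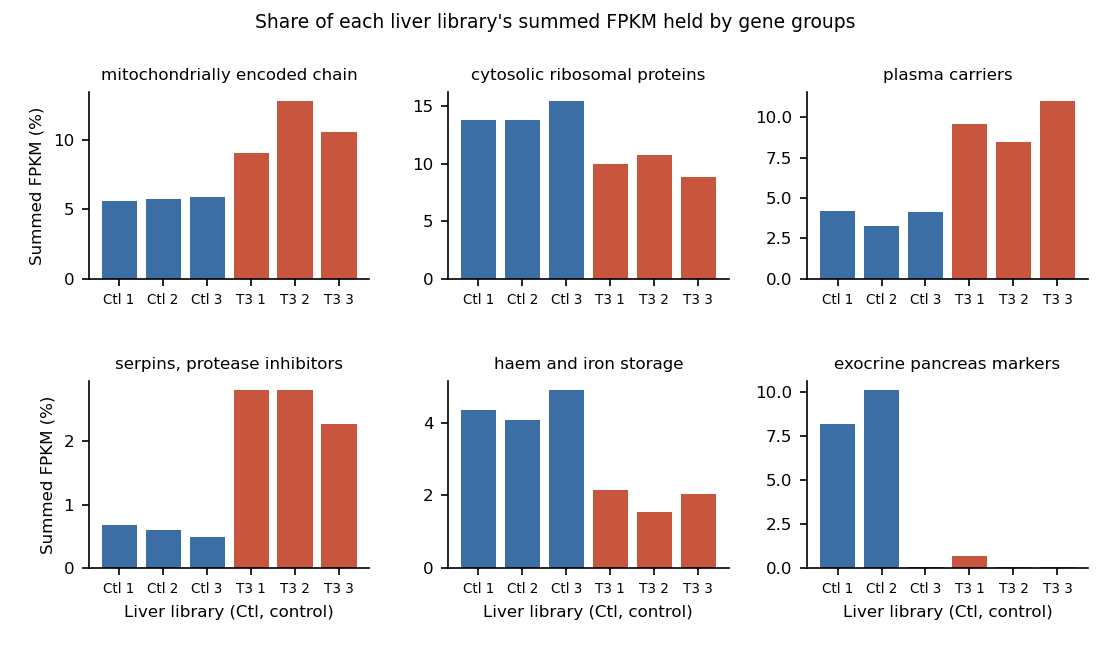
Percent of each liver library's summed FPKM held by 6 gene groups, with a bar for each control (Ctl, blue) and T3 (red) library. The first 5 groups do not overlap between treatments, whereas exocrine pancreas markers reach 8.16 and 10.1% in control livers 1 and 2 alone. The 6 groups were picked with results known, and non-overlap was also common among the lists not shown.

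Leukocyte transcripts were lower with T3, and T3 liver 2 was usually the lowest library. Of 127 leukocyte receptors, cytokines and chemokines, 3 rose and 34 fell, 29.1% against 13.9% of all descriptions. Of the members 102 had a negative fold change, and the median was −0.83 (−0.59 after median-ratio scaling, with 23 falls). T3 liver 2 was the lowest of the 6 libraries for 80 of them. Its median-ratio scaling factor was also the smallest, 0.805 against 0.940 to 1.151 in the other livers. How often T3 liver 2 was lowest over all unigenes was not counted, so this is not shown to be particular to leukocyte transcripts. Interferon gamma-inducible protein 30, a thiol reductase of antigen processing, went from 276, 179 and 233 FPKM to 74.9, 16.1 and 50.1 (−2.49 ± 0.51, adjusted p = 0.023). The chemokine interleukin-8 fell by 2.58 ± 0.63 (adjusted p = 0.039; 0.064 after median-ratio scaling), and CXCL10 by 1.90 ± 0.39 (adjusted p = 0.024). Macrophage receptor MARCO, a scavenger receptor of resident macrophages, fell from 161, 129 and 106 FPKM to 58.9, 26.4 and 45.1 (−1.63 ± 0.31, adjusted p = 0.019). Integrin alpha-M, a myeloid adhesion molecule, fell by 3.57 ± 0.39 (adjusted p = 0.0024). Toll-like receptor 5, the flagellin receptor, was a rise, by 1.99 ± 0.34 (adjusted p = 0.013). All 12 members for antigen presentation had negative values with a median of −1.29, but 1 was called, 8.33% against 13.9% of all descriptions (0 after median-ratio scaling). Of 67 lysosomal and autophagy members 4 rose and 18 fell, 32.8% against 13.9% of all descriptions, but 4 and 5 after median-ratio scaling. Without control livers 1 and 2 the medians were −0.84 for leukocyte, −0.86 for lysosomal and −1.81 for antigen presentation members. With all livers they were −0.83, −0.80 and −1.29. Macrophage and leukocyte markers other than lysozyme C-2 summed to 725 to 947 FPKM in controls and 222 to 612 with T3, and their part in these falls was not tested.

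Growth and matrix transcripts gave smaller changes. Insulin-like growth factor I was at 0.33, 0.02 and 0 FPKM in controls and 9.81, 4.82 and 6.89 with T3 (2.84 ± 0.29, adjusted p = 0.0019). Its binding protein 4 rose from 6.58, 5.44 and 7.02 FPKM to 49.5, 38.2 and 41.8 (2.59 ± 0.21, adjusted p = 0.00076), and binding protein 2 by 1.54 ± 0.27 (adjusted p = 0.015). Binding protein 1, the most abundant, missed the threshold (1.14 ± 0.33, adjusted p = 0.062). Of 45 collagens and matrix members 6 rose and 2 fell, 17.8% against 13.9% of all descriptions. Type I collagen alpha 2 was up by 1.60 ± 0.31 (adjusted p = 0.019). Keratin 8, of the hepatocyte cytoskeleton, rose by 1.22 ± 0.22 (adjusted p = 0.016). Cadherin-1, the epithelial adhesion protein, fell from 325, 367 and 374 FPKM to 60.9, 93.9 and 96.9 (−2.10 ± 0.22, adjusted p = 0.0020). No cell cycle response was detectable with this test: none of 36 mitotic members and 1 of 47 for DNA replication (2.13%, against 13.9% of all descriptions) were called, with medians of 0.00 and −0.02. The inhibitor of apoptosis BIRC2 fell from 117, 110.1 and 118 FPKM to 23.5, 20.3 and 22.1 (−2.34 ± 0.17, adjusted p = 0.00061), 1 of 3 falls among 23 cell death members. Without control livers 1 and 2 the medians were −0.04 for the insulin-like growth factor list, 0.41 for matrix members and 0.25 for keratins and junctions. With all livers they were 0.01, 0.45 and 0.21. Some of the remaining lists are summarised by counts, beside 13.9% called of all descriptions, and others are not described. Heat shock proteins and chaperonins gave 4 rises and 5 falls in 42 members (6 and 1 after median-ratio scaling), 21.4% called. Antioxidant enzymes gave 2 and 5 in 21 (3 and 1), 33.3%, and amino acid transporters 5 and 1 in 21 (5 and 0), 28.6%. Endoplasmic reticulum folding gave 1 and 0 in 43 (6 and 0), 2.33%, and proteasome subunits 0 and 2 in 20 (0 and 0), 10%.

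The order of the most abundant transcripts changed in part. FR10, a freeze-responsive liver protein of wood frogs, was the most abundant in both groups, with 22347, 22485 and 28163 FPKM in controls and 29085, 34055 and 29786 with T3 (0.35 ± 0.14, adjusted p = 0.15). Li16, another such protein, went from 11922, 11281 and 14878 FPKM to 20902, 34998 and 24047 (1.05 ± 0.21, adjusted p = 0.023) and from position 5 to position 2. Beta-actin fell from 7141, 6967 and 7854 FPKM to 4123, 1954 and 3007 (−1.34 ± 0.26, adjusted p = 0.020). Cationic trypsin-3 and a further trypsin took positions 3 and 4 in control livers, with their high values in control livers 1 and 2.

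Those pancreatic transcripts formed a block that divided the control livers. Cationic trypsin-3 stood at 19963, 24794 and 55.4 FPKM in control livers 1 to 3 and at 1012, 9.43 and 38.2 in T3 livers 1 to 3. Its log2 fold change of −5.35 ± 2.53 had an adjusted p of 0.20 and became 0.40 without control livers 1 and 2. Pancreatic amylase was at 5626, 7705 and 29.8 FPKM in controls and 85.9, 1.95 and 1.42 with T3 (adjusted p = 0.080). In all 146 unigenes were at least 10 times higher in both control livers 1 and 2 than in control liver 3, and 28 of them are on the pancreas list. They held 11.6%, 14.6% and 0.0557% of the summed FPKM in control livers 1 to 3 and 0.857%, 0.0644% and 0.0751% in T3 livers. No informative description was carried by 67 of the 146. The reverse pattern was seen in 21 unigenes, but the 2 counts are not comparable. A unigene high in 2 control livers meets the limit of 3 libraries more easily than a unigene high in 1. Of the 146, 2 were called, both higher with T3; their spread among control livers, by which they were chosen, leaves little room for a called fall. Lysozyme C-2 belonged to it, with 4252, 7415 and 14 FPKM in controls and 48.2, 1.56 and 1.05 with T3 (adjusted p = 0.093), and peptidoglycan recognition protein 1, which binds bacterial walls, was also highest in control livers 1 and 2 (2985, 5680 and 810.5 against 266, 258 and 109 FPKM) but was called (−3.61 ± 0.69, adjusted p = 0.018; 0.21 without those livers).

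Islet hormones, chosen after their values had been seen, did not follow the same order. Preproinsulin stood at 24.3, 52.7 and 0.47 FPKM in control livers 1 to 3 and at 90.3, 2.71 and 20.7 in T3 livers 1 to 3. Proglucagon was at 6.81, 5.79 and 0 FPKM in controls and 86.2, 2.04 and 19.4 with T3. Somatostatin was at 13.4, 6.66 and 0.12 FPKM and at 50.8, 3.08 and 19.6. All of these hormones were highest in T3 liver 1 and lowest in control liver 3, and the groups overlapped (adjusted p from 0.27 to 0.82).

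**Figure D5:**
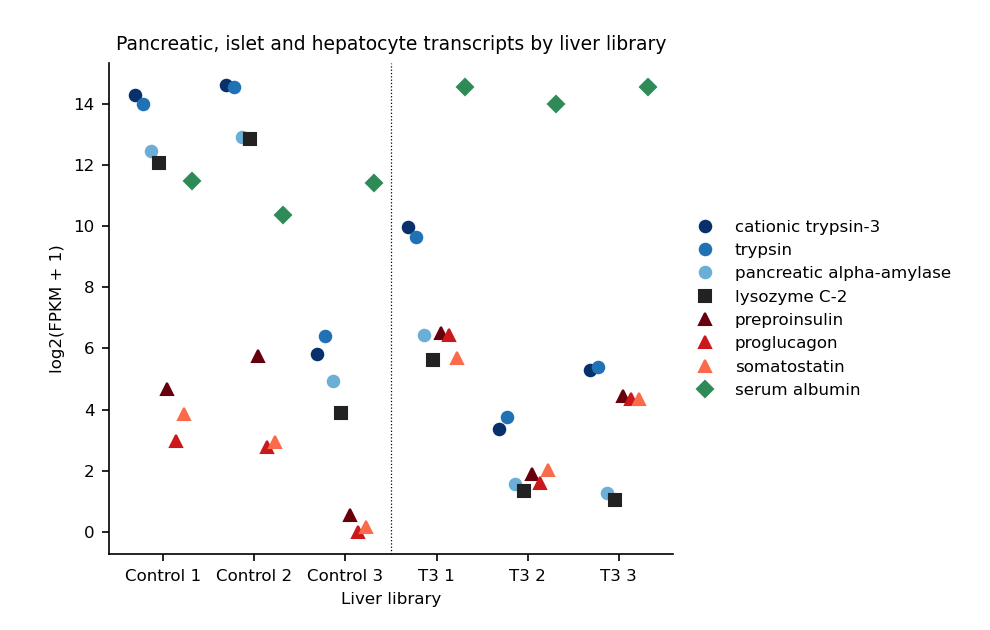
log2(FPKM + 1) of digestive enzymes (circles), lysozyme C-2 (squares), islet hormones (triangles) and serum albumin (diamonds) in each of the 6 liver libraries. The enzymes and lysozyme C-2 are high in control livers 1 and 2, the hormones are highest in T3 liver 1, and albumin separates the treatments, with 1301 to 2845 FPKM in controls and 16077 to 23906 with T3.

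The calls differed in how far they rested on single libraries. In deposited FPKM, after median-ratio scaling and with each library left out in turn, 558 unigenes (2.95%) were called throughout, 276 higher and 282 lower, and 305 descriptions (3.03%). Leaving out 1 T3 liver left 1746 to 1836 calls, whereas leaving out control liver 1, 2 or 3 left 872, 737 and 704. Without control livers 1 and 2 together 135 unigenes were called, 80 higher and 55 lower. Of the 15 largest rises 14 stayed called in that comparison (adjusted p from 0.0046 to 0.16), methionine sulfoxide reductase A being the exception, and of the 15 largest falls 10 (0.014 to 0.21). The lone control liver is then assumed to vary as the T3 livers do.

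Some of the largest changes had no informative name, and these were picked after their values had been seen. LOC100127805 protein went from 2.52, 0 and 2.24 FPKM to 93.5, 171 and 189.8 (log2 fold change 6.02, adjusted p = 0.00091). LOC100158309 protein went from 233, 378 and 291 FPKM to 1.61, 8.43 and 14.2 (−5.36, adjusted p = 0.0024). A unigene without any NR match fell from 342, 145 and 135 FPKM to 3.25, 2.86 and 6.6 (−5.25, adjusted p = 0.00076).

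The T3 effect in liver was set against that in tail, a tissue that resorbs at metamorphosis, by the difference of the log2 fold changes. It differed in 3187 of the 18923 unigenes (16.8%), with 518 larger in liver and 2669 smaller; after median-ratio scaling 1185 were larger and 791 smaller of 1976. These unigenes were selected on liver levels alone. Of the 14251 that met the same limit in tail 2672 differed (18.7%), and of the 4672 that did not 515 (11%). Of 2161 descriptions called different (21.5%), 637 were called in liver, and for 438 of these the estimates had opposite signs in the tissues. This count takes in tail values near 0, such as −0.06 for SULT1C4, and a tail change by itself was not tested. On this scale the median over descriptions was −0.27 in liver and 0.34 in tail. The globin rises were shared, with adult beta globin up by 6.5 in tail, whereas for the urea cycle the difference was called for 8 of 13 members, 7 with the larger value in liver and 1 with the smaller, and the tail median was 0.08. Type III deiodinase fell in liver and had a log2 fold change of 2.08 in tail (adjusted p of the difference 0.00095), and monocarboxylate transporter 10 had 2.09 in tail (0.00045). Krüppel-like factor 9 was up by 1.95 in tail, a difference from liver that did not pass the test (adjusted p = 0.16).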

How the data were processed

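The authors assembled paired-end poly-A reads of all libraries de novo with Trinity, named unigenes by their best NR match, mapped reads with Bowtie and estimated FPKM with RSEM. The deposited FPKM matrix was used as it stands. All 12 value columns were matched to samples by their labels and 0 were left over. No read counts, genome or sequences were used here. Unigenes that reached 1 FPKM in 3 or more of the 6 liver libraries were tested on log2(FPKM + 1) with limma 3.58.1 (R 4.3.3, trend), Benjamini-Hochberg adjusted over all 18923, threshold 0.05. The same model with all 12 libraries gave the difference between liver and tail. In simulated livers with 200 planted changes, 181 calls included 4 false ones, and data without changes gave 0 calls. Of 100 changes of size 1, 77 were found, and of 100 of size 2, 100. Changes were planted only in more highly expressed unigenes, with noise independent between unigenes. Scale shifts and the pancreatic transcripts were not simulated, so these rates do not carry over to low levels or to the real livers.

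For each description the unigene with the highest mean FPKM was taken. Named transcripts were drawn from several sets, and not every member of these sets is named. The sets were the 15 largest called rises and falls, the 15 most abundant transcripts of each group, the 4 most abundant members and the 2 largest called rises and falls of each of 54 lists, the 10 largest rises and falls called in every omission and scaling, and thyroid hormone axis members. Of the largest falls, 1 is not reported here. Lists were written from description wording. Members and lists were chosen with earlier results of these data known. Exact permutation tests compared the shares of summed FPKM of the cell type marker, ribosomal, mitochondrially encoded and mobile element lists. Shares of the other lists were not tested. Alternatives changed the pseudocount (0.1, 5), filter (none, 5 FPKM), scaling (median-ratio, quantile, equal sums), variance model, replicate block and the libraries included. Columns, tools and parameters were handled in Python 3.11.15 with pandas 2.3.3. Depth in reads is unknown, so no counting intervals are given.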

Additional observations from a re-analysis of the deposited data

Results flagged for a closer look

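Results are listed here because the T3 effect differed between liver and tail in the limma model with both tissues. This held for 3187 unigenes, and for 29 of the transcripts with the largest liver changes. The values are the log2 fold change in liver minus that in tail, with the adjusted p over all tested unigenes. For 14 of the 29 the tail mean was under 1 FPKM in both groups.

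Among 15 with the larger value in liver, nicotinamide N-methyltransferase (NNMT) differed by 8.43 ± 0.64 (SE, adjusted p = 7.5e-06), and its tail means were 0.313 and 0.41 FPKM. NAD(P)H quinone dehydrogenase 1 differed by 7.89, as it rose in liver and had a value of −2.91 in tail, where the mean was 14.8 FPKM in controls and 0.753 with T3. The difference was 7.59 for the medium-chain acyl-CoA hydrolase, 7.56 for carboxylesterase 3, 6.30 for SULT1C4, 5.69 for SULT1C3 and 5.30 for the amine sulfotransferase. It was 5.74 for alpha-2-HS-glycoprotein, 5.46 for a putative methyltransferase with the best match DDB_G0268948, 5.06 for methionine sulfoxide reductase A, 4.71 for CYP2A6 and 3.47 for a MAS-like receptor (adjusted p = 0.039). The globins rose in both tissues and more in liver, by 4.25 for adult beta globin, 4.49 for haemoglobin subunit alpha-C and 3.96 for alpha-B.

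Among 14 with the smaller value in liver, collectin-11 differed by −6.31 ± 0.64 (adjusted p = 7.1e-05). Twisted gastrulation homolog 2, a modulator of bone morphogenetic protein signalling, differed by −5.35 and had a value of 1.19 in tail. The difference was −4.81 for liver fatty acid-binding protein, −4.79 for CYP7B1, −4.27 for hepcidin, −3.76 for the bile salt export pump and −3.70 for retinol dehydrogenase 7. It was −3.69 for a splicing factor 3A subunit 2-like protein, which was listed at 0 in the tail, −3.65 for the transport ATPase 13A4, −3.61 for CYP4B1 and −3.38 for peptidoglycan recognition protein 1. Glycine amidinotransferase (−3.39, adjusted p = 0.035), 11-beta hydroxysteroid dehydrogenase 1 (−3.07) and methylenetetrahydrofolate dehydrogenase 2 (−2.26) had negative values in both tissues and the more negative in liver.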

How the results depend on the processing

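The number of calls (2365, 725 higher and 1640 lower) rested on the control livers. With control liver 1, 2 or 3 left out it ranged from 704 to 872 (322 to 355 higher, 382 to 517 lower), against 1746 to 1836 (548 to 651 higher, 1121 to 1198 lower) without a T3 liver. Without control livers 1 and 2 it was 135 (80 and 55), and with median-ratio scaling as well, an alternative chosen after seeing the data, 57 (46 and 11). Without a filter 1069 of 50385 unigenes were called (435 and 634), and an unmoderated test of each unigene gave 900 (270 and 630). Falls numbered 714 after median-ratio scaling and 754 after quantile normalization, with 1683 and 1676 calls in all. The difference between tissues was called for 3187 unigenes, 1976 after median-ratio scaling and 742 without control livers 1 and 2. Pseudocounts, the 5 FPKM filter, equal sums and the variance model left the number of liver calls within 1.5 times.

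Libraries with the same number deviated together with correlations of 0.238, 0.0723 and 0.149. Between libraries with different numbers the correlations ran from −0.237 to 0.0789. The numbers were not taken as pairs, because the sources do not say that they are. Whether libraries with the same number share a source of spread was not tested. A fit with the replicate number as a block gave 2177 calls in liver and 3039 differences between tissues.

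Of 114 named transcripts followed through these settings, 80 lost their call in at least 1, counting settings that leave 1 control liver. Calls were lost for 9 after median-ratio scaling, for 19, 22 and 23 without control liver 1, 2 or 3, and for 41 in the unmoderated test. The sign changed for 4, none of them called. C3 was at 0.226 after median-ratio scaling, −0.234 to 0.048 with 1 control liver left out and 0.265 with median-ratio scaling and without control livers 1 and 2. In that last setting monocarboxylate transporter 10 was at 0.213, cationic trypsin-3 at 0.749 and the further trypsin at 0.219, and cationic trypsin-3 was at 0.401 without control livers 1 and 2. Medians of 54 lists changed sign in 15 cases after median-ratio scaling. The cause of these shifts was not tested. Read depth is unknown.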
